A study of Mus musculus with 28 samples.

Results

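Endocannabinoids are lipid messengers that neurons make on demand and that act mostly back across the synapse, on receptors of the terminals that contact them. The 6 genes described here encode the CB1 cannabinoid receptor (*Cnr1*), 2 enzymes that make the messengers (*Daglb* and *Napepld*) and 3 that break them down (*Faah*, *Mgll* and *Abhd6*). They were taken by their gene symbols, with no use of their values, and all 6 were among the 49477 genes listed for both batches of mice and among the 16266 that averaged 10 counts or more per mouse and were tested. The question was whether their RNA in the amygdala differed after a single or a repeated access to ethanol.

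RNA came from micropunches of the amygdala, containing its central and basolateral nuclei, of 28 adult female C57BL6/J mice, in 2 batches. Mice of the Water group (10 mice, 4 of the first and 6 of the second batch) drank water only. Mice of the Acute Drinking group (9 mice, 4 and 5) had access to 20% ethanol once, at the end of the drinking period, and mice of the Chronic Drinking group (9 mice, 3 and 6) had it every other day for a month, in both groups beside a bottle of water. Ethanol was drunk by choice, drinking mice still had both tubes in the home cage until they were anaesthetized for tissue collection, and all mice were in proestrus or estrus. Counts per gene totalled 20004380 to 22569562 per mouse. All 8 markers of excitatory basolateral neurons (mean counts 643 to 26592) and all 8 of the central amygdala (142 to 5470) were measured, but so were all 8 of striatum (up to 11137) and all 6 of choroid plexus (up to 23890). Between mice the scores of these lists, as mean log2 CPM (counts scaled to a common library size) with batch means removed, had an SD of 0.57 for striatum and 1.85 for choroid plexus, against 0.058 for neurons.

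In the brain, CB1 sits mainly on axon terminals, where it lowers transmitter release through Gi/o proteins. Its main lipid agonists are 2-arachidonoylglycerol (2-AG), made by the diacylglycerol lipases, and anandamide, an N-acylethanolamine that NAPE-PLD and other enzymes make from membrane phospholipids. Most 2-AG in the brain is hydrolysed by monoacylglycerol lipase (*Mgll*), with smaller parts for ABHD6 and ABHD12, and anandamide by fatty acid amide hydrolase (*Faah*). In the amygdala this signalling is known for its part in fear extinction, stress and ethanol intake.

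None of the 6 genes passed the adjusted test in any comparison between drinking groups. With batch as a covariate, edgeR's quasi-likelihood test with Benjamini-Hochberg adjustment over the 16266 genes called 0 of 6 between Acute and Water mice, where it called 0 genes in all (0%), 0 of 6 between Chronic and Water mice, where it called 3 (0.0184%), and 0 of 6 between Chronic and Acute mice, where it called 0 (0%). At an unadjusted p under 0.05, 1 of the 6 genes (*Mgll*) differed between Acute and Water mice, against 9.52% of all genes (1549). The counts were 0 of 6 against 10.5% (1702 genes) for Chronic and Water and 0 of 6 against 4.44% (723 genes) for Chronic and Acute. Values of the 3 groups overlapped for each of the 6 genes in each of the 3 comparisons. Both drinking groups were set against the same Water mice. The median log2 fold change of the 6 genes was -0.029 between Acute and Water mice, 0.022 between Chronic and Water mice and 0.046 between Chronic and Acute mice, beside medians of 0.0011, 0.0022 and -0.00089 over all genes tested.

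**Figure D1:**
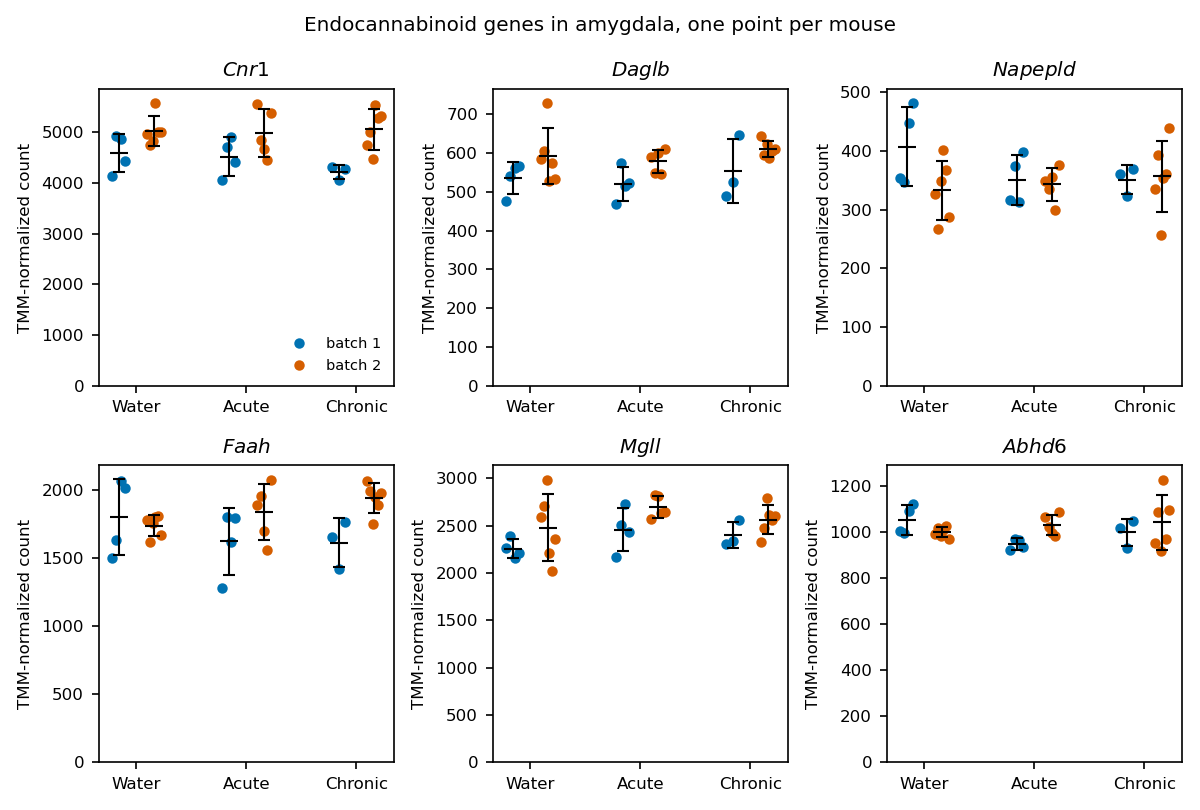
TMM-normalized counts of the 6 genes in every mouse, by drinking group and batch (colour), with the mean and SD of each group within a batch (bars). Groups overlap in each panel, and *Cnr1* lies at 4049 or above in all 28 mice while *Napepld* lies between 257 and 481.

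*Cnr1* (chr4:33924593-33948831, plus strand, GRCm38) was the most abundant of the 6. Its TMM-normalized counts, that is counts scaled for library size and composition, ranged from 4134 to 5573 in Water mice (median 4889), from 4049 to 5562 in Acute mice (median 4717) and from 4053 to 5540 in Chronic mice (median 4740). The groups covered almost the same range. The fold change was -0.946% in Acute mice (95% interval -7.45% to 6.02%, adjusted p = 0.953, exact permutation p = 0.732) and -2.47% in Chronic mice (-8.89% to 4.41%, adjusted p = 0.84, exact p = 0.427), both against Water. Between Chronic and Acute mice it was -1.53% (-8.20% to 5.61%), on the log2 scale -0.022, with -0.043 without Acute mouse 4 and -0.00092 without Acute mouse 1. These intervals come from the fit with both batches.

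*Daglb* (chr5:143464584-143505942, plus strand), a diacylglycerol lipase and one of the makers of 2-AG, had normalized counts of 476 to 728 in Water mice (median 563), 468 to 609 in Acute mice (median 548) and 489 to 647 in Chronic mice (median 604). The highest mouse was a Water mouse, and Chronic mice lay above their batch's Acute mean in 8 of 9 cases. The difference between Chronic and Acute mice was 5.89% (95% interval -2.16% to 14.6%, unadjusted p = 0.149 and adjusted p = 0.998 by edgeR's test, exact p = 0.131). Against Water mice, *Daglb* differed by -2.60% in Acute mice (-9.83% to 5.20%) and 3.14% in Chronic mice (-4.49% to 11.4%). These sizes rested on single mice: on the log2 scale the Acute difference of -0.038 was -0.060 without Water mouse 40 and -0.00070 without Water mouse 3, and the Chronic difference of 0.045 was 0.0080 without Chronic mouse 39 and 0.084 without Water mouse 3. The difference between Chronic and Acute mice, 0.083, was 0.045 without Chronic mouse 39. At its 3′ end *Daglb* overlaps *Rac1*, which lies on the other strand and had a mean count of 7547. Whether the libraries kept strand is not given in the sources used here, so reads from the shared stretch cannot be told apart.

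*Napepld* (chr5:21662901-21701396, minus strand), which encodes the NAPE-hydrolysing phospholipase D, had the lowest counts and the largest spread. Normalized counts were 267 to 481 in Water mice (median 351), 299.997 to 398 in Acute mice (median 349) and 257 to 438 in Chronic mice (median 361). Drinking mice lay within the Water range, apart from Chronic mouse 3 at 257. The change was -4.83% in Acute mice (95% interval -16.2% to 8.06%, adjusted p = 0.836) and -1.66% in Chronic mice (-13.4% to 11.7%, adjusted p = 0.951) by edgeR's test.

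*Faah* (chr4:115967145-116017926, minus strand), which ends the action of anandamide, had normalized counts of 1502 to 2068 in Water mice (median 1768), 1279 to 2079 in Acute mice (median 1796) and 1420 to 2072 in Chronic mice (median 1891). The upper ends nearly coincided, and the 2 lowest mice were Acute mouse 33 (1279) and Chronic mouse 38 (1420), both of the first batch. The fold change was -1.33% in Acute mice (95% interval -10.7% to 9.02%, adjusted p = 0.954, exact p = 0.787) and 2.66% in Chronic mice (-7.11% to 13.5%, adjusted p = 0.892, exact p = 0.544).

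*Abhd6* (chr14:8002902-8056763, plus strand), a serine hydrolase that removes part of the 2-AG, varied least. Its normalized counts were 969 to 1121 in Water mice (median 1007), 922 to 1086 in Acute mice (median 982) and 916 to 1228 in Chronic mice (median 1016). Chronic mice spanned the widest range, with both the lowest and the highest value of the 28. Acute mice differed from Water mice by -2.61% (95% interval -8.64% to 3.81%, adjusted p = 0.823) and Chronic mice by 0.479% (-5.75% to 7.11%, adjusted p = 0.975) by edgeR's test. On the log2 scale the Acute difference was -0.038, and -0.018 without Water mouse 43, -0.067 with ComBat-seq and -0.060 with GC and length offsets.

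*Mgll* (chr6:88724412-88828360, plus strand), the main hydrolase of 2-AG, was the single gene of the 6 with an unadjusted p under 0.05 in the fit over both batches. Normalized counts were 2020 to 2988 in Water mice (median 2311), 2171 to 2822 in Acute mice (median 2635) and 2310 to 2793 in Chronic mice (median 2558). The Water mice of the second batch spread widely, with mice 4, 5 and 6 at 2216, 2020 and 2355 and mice 1, 2 and 3 at 2597, 2708 and 2988. Means were 2391 ± 292 (SD, n = 10) in Water mice, 2593 ± 205 (n = 9) in Acute mice and 2510 ± 162 (n = 9) in Chronic mice.

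The difference in *Mgll* between Acute and Water mice was 8.86%, a log2 fold change of 0.12 (SE 0.052, 95% interval of the change 1.07% to 17.3%), with an unadjusted p of 0.0265 and an adjusted p of 0.486 by edgeR's test. The exact permutation test, which regroups mice within batches, gave p = 0.0555. The first batch gave a log2 difference of 0.12 and the second one of 0.13, and 8 of 9 Acute mice lay above the Water mean of their batch. Chronic mice differed from Water mice by 4.45% (95% interval -3.03% to 12.5%, adjusted p = 0.711, exact p = 0.271), also with 8 of 9 mice above the Water mean. Without Acute mouse 35, Acute mouse 2, Water mouse 4 or Water mouse 5 the unadjusted p of the Acute difference lay above 0.05, at up to 0.0638, and without Water mouse 3 it was 0.0027. The Chronic difference, 0.063 on the log2 scale, was 0.033 (unadjusted p = 0.493) without Water mouse 5, 0.045 (0.398) without Water mouse 4 and 0.099 (0.047) without Water mouse 3. No call followed from any of these. The score of 8 microglial markers, which varied with *Mgll* between mice as given below, differed between Acute and Water mice by 0.0052 (exact p = 0.885), with batch values of 0.053 and -0.030. The striatal score, which also varied with *Mgll*, lay 0.21 above Water in the Acute group (exact p = 0.474), with batch values of 0.60 and -0.074. The central amygdala score lay 0.22 above Water in the Acute group (exact p = 0.0284), with batch values of 0.35 and 0.13, and its r with *Mgll* was 0.11 (adjusted p = 0.643 by permutation). The part of these scores in the *Mgll* difference was not tested.

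**Figure D2:**
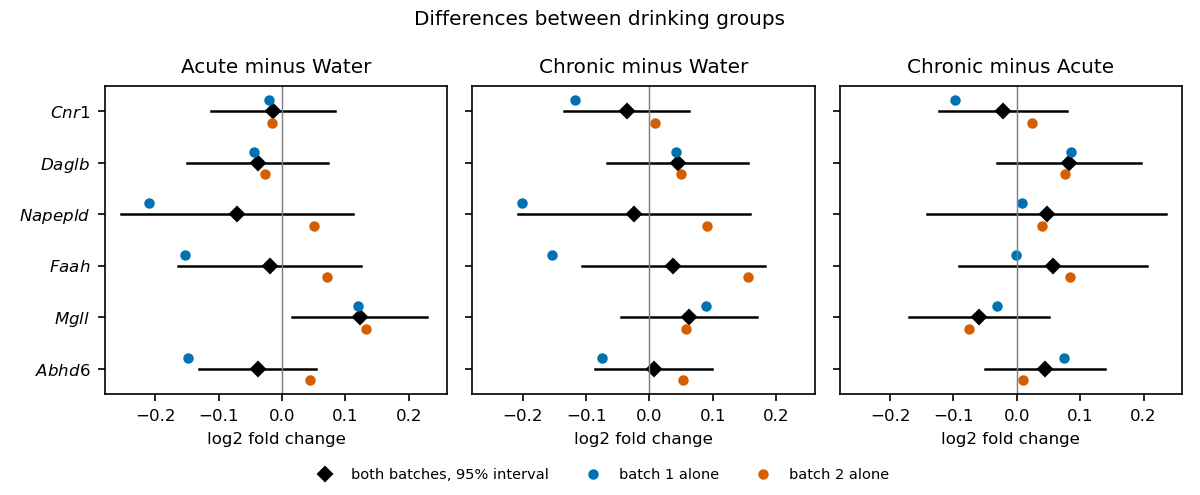
Log2 fold changes of the 6 genes between drinking groups: diamonds and lines give the fit over both batches with its 95% interval, and circles the difference of mean log2 CPM within each batch. The interval of *Mgll* between Acute and Water mice (8.86%) leaves out 0, and *Napepld*, *Faah* and *Abhd6* have batch 1 and batch 2 on opposite sides of 0 in both comparisons with Water.

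*Napepld*, *Faah* and *Abhd6* had lower means in drinking than in Water mice of the first batch and higher means in the second. In that first batch, Water mice 42 and 43 lay above the other Water mice in all 3 genes. Their log2 CPM, with batch means removed, was 0.28 and 0.39 for *Napepld*, 0.31 and 0.27 for *Faah* and 0.13 and 0.17 for *Abhd6*. In Water mice 40 and 41 it was -0.056 and -0.084, -0.16 and -0.032, and 0.0076 and -0.0060, in the same order. Batch differences of opposite sign were common: 3 of 6 genes had them in Acute mice, against 42.8% of all genes, and 4 of 6 in Chronic mice, against 48.7%. The fourth was *Cnr1* in Chronic mice (-0.12 and 0.0082). In Acute mice the log2 difference from Water was -0.21 and 0.051 for *Napepld*, -0.15 and 0.072 for *Faah* and -0.15 and 0.044 for *Abhd6*, for the first and second batch. In Chronic mice it was -0.20 and 0.091 for *Napepld*, -0.15 and 0.16 for *Faah* and -0.075 and 0.053 for *Abhd6*. The difference between batches was tested as an interaction. Of the 12 tests of the 6 genes, those of *Faah* in Chronic mice (unadjusted p = 0.0289, adjusted p = 0.789) and of *Abhd6* in Acute mice (unadjusted p = 0.0312, adjusted p = 0.999) had an unadjusted p under 0.05 by edgeR's test, and none passed the adjustment. That is 1 of 6 genes in each comparison, against 4.13% of all genes in Acute and 6.15% in Chronic mice. Fitted alone, the first batch gave *Abhd6* in Acute mice a log2 fold change of -0.15 (unadjusted p = 0.0122 by edgeR's test), 1 of 6 genes under 0.05 against 7.21% of all genes. The second batch alone gave *Faah* in Chronic mice 0.16 (unadjusted p = 0.0139), 1 of 6 against 13.4%. Neither was called. In the first batch every Acute mouse (922 to 971) lay below every Water mouse (994 to 1121) for *Abhd6*, 1 of the 6 genes. Of all genes tested, 299 (1.84%) did the same. For *Faah*, every Chronic mouse lay below the Water mean of its batch in the first and above it in the second, as 328 genes (2.02%) did in one direction or the other.

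Of the 12 cell type marker lists, 6 also differed in direction between the batches in both comparisons with Water: oligodendrocytes, excitatory basolateral neurons, astrocytes, CCK interneurons, striatum and choroid plexus. In the first batch the oligodendrocyte score was 0.29 higher in Acute and 0.33 higher in Chronic than in Water mice, and in the second batch it was lower, with differences of -0.028 and -0.098. The score of excitatory basolateral neurons differed, for Acute and Chronic mice, by -0.093 and -0.13 in the first batch, against 0.012 and 0.097 in the second. The striatal score, which varied with all 3 genes as given below, was 0.60 higher in Acute and 0.24 higher in Chronic than in Water mice of the first batch, against -0.074 and -0.46 in the second. In Water mice 42 and 43 of the first batch the striatal score was -1.30 and -1.26, and in Water mice 40 and 41 0.89 and 0.53. The oligodendrocyte score of these mice was -0.32 and -0.52, against 0.062 and -0.00084. Astrocytes differed by 0.025 and 0.063 against -0.032 and -0.040, CCK interneurons by -0.057 and -0.0031 against 0.097 and 0.13, and choroid plexus by -0.41 and 0.38 against 0.046 and -0.78. Over both batches, the exact test between groups gave p from 0.354 to 0.819 for the oligodendrocyte and excitatory scores over 3 comparisons, and from 0.0575 (Chronic and Acute) to 0.509 for the striatal score. Their part in the batch difference of the 3 genes was not tested. In bulk tissue, fewer cells of a type and less RNA per cell cannot be told apart.

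Levels can be compared between genes once they are divided by transcript length. In Water mice, *Cnr1* had 40.3 ± 3.16 CPM per kilobase of its longest transcript (SD, n = 10), followed by *Mgll* with 29.0 ± 3.54, *Abhd6* with 22.2 ± 1.06, *Faah* with 15.4 ± 1.53, *Daglb* with 5.66 ± 0.655 and *Napepld* with 4.46 ± 0.808. *Cnr1* was above *Mgll*, *Mgll* above *Abhd6*, *Abhd6* above *Faah* and *Faah* above *Daglb* in 28 of 28 mice. *Daglb* was above *Napepld* in 27 of 28, and the Water ranges of *Cnr1* and *Mgll* and of *Daglb* and *Napepld* overlapped. With the union of all exons as length the order of *Daglb* (2.89) and *Napepld* (4.46) turned, with *Napepld* higher in 28 of 28 mice, and *Mgll* was above *Abhd6* in 24 of 28. *Dagla*, which encodes the other diacylglycerol lipase, had 19.8 ± 1.26 CPM per kilobase, and *Abhd12*, another 2-AG hydrolase, 134 ± 8.26, both with the longest transcript.

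**Figure D3:**
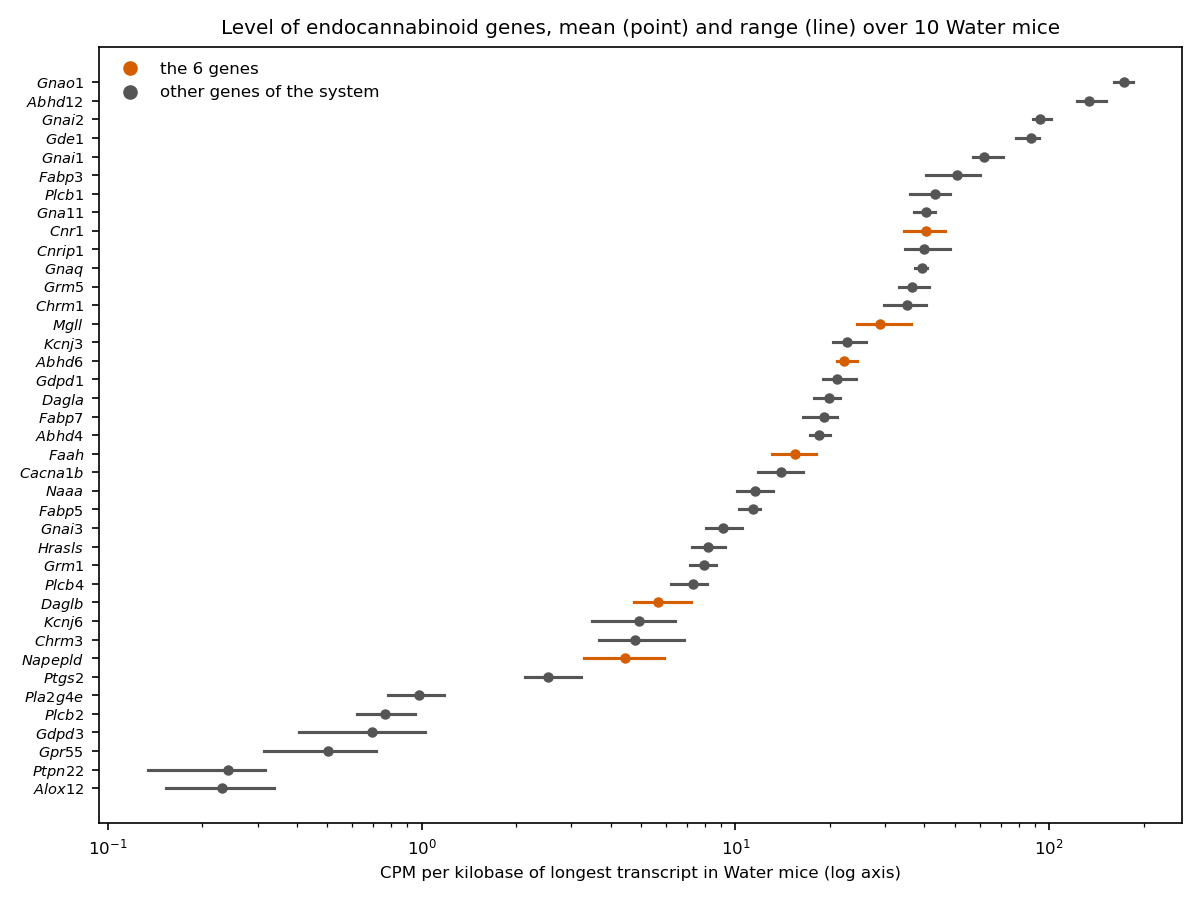
CPM per kilobase of longest transcript in the 10 Water mice (log axis), as mean (point) and range (line), for the 6 genes (orange) and 33 other genes of the system (grey). The 6 genes run from *Napepld* at 4.46 to *Cnr1* at 40.3.

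The spread within a group and batch, as an SD of log2 CPM, was 0.20 for *Napepld*, 0.16 for *Faah*, 0.13 for *Daglb* and *Mgll*, 0.11 for *Cnr1* and 0.093 for *Abhd6*. Over the 11723 genes averaging 100 counts or more the median was 0.11, and 89.0% of these genes varied less than *Napepld*. *Cnr1* was 1.13-fold, *Daglb* 1.11-fold, *Faah* 1.10-fold, *Mgll* 1.08-fold and *Abhd6* 1.02-fold as high in the second batch as in the first, and *Napepld* 0.927-fold. In absolute log2 terms these batch differences ran from 0.033 for *Abhd6* to 0.17 for *Cnr1*, beside a median of 0.11 over the same genes.

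Between mice, 4 of the genes varied together. After removal of batch means, 6 of the 15 pairs correlated with an adjusted p under 0.05 (permutation within batches, adjusted over the 15 pairs), and they were the 6 pairs among *Cnr1*, *Napepld*, *Faah* and *Abhd6*. No share over all pairs of genes is given here, so the count does not set these 4 genes apart. *Napepld* and *Faah* had the highest coefficient, with Pearson's r = 0.72 over 28 mice (permutation p = 1e-05, the smallest that 100000 permutations can give, adjusted p = 0.00015) and Spearman's rho = 0.74 (permutation p = 2e-05). It was 0.87 in the first batch, 0.62 in the second and 0.72 without the 2 mice farthest from the median of *Napepld*. For *Napepld* and *Abhd6*, r was 0.62 (permutation p = 0.00057, adjusted p = 0.0043) with rho = 0.58 (permutation p = 0.0014), and 0.50 without 2 mice. For *Faah* and *Abhd6*, r was 0.58 (permutation p = 0.0010, adjusted p = 0.0051), rho 0.57 (permutation p = 0.0027) and r without 2 mice 0.50.

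*Cnr1* correlated with *Faah* at r = 0.54 (permutation p = 0.0039, adjusted p = 0.0147, rho = 0.54, p = 0.0042), with *Abhd6* at r = 0.52 (permutation p = 0.0057, adjusted p = 0.0172, rho = 0.50, p = 0.0085) and with *Napepld* at r = 0.49 (permutation p = 0.0097, adjusted p = 0.0243, rho = 0.49, p = 0.0095). Without the 2 mice farthest from the median of *Cnr1* these were 0.58, 0.54 and 0.46. The pair of *Cnr1* and *Napepld* lost the threshold without Chronic mouse 3 (adjusted p = 0.0716) or Acute mouse 33 (adjusted p = 0.0542) and that of *Cnr1* and *Abhd6* without Chronic mouse 4 (adjusted p = 0.0512). *Daglb* fell short of the threshold with *Faah* (r = 0.45, permutation p = 0.0238, adjusted p = 0.0509), a pair that passed it by rank (rho = 0.50, adjusted p = 0.0218), and *Mgll* (r = 0.41, permutation p = 0.029, adjusted p = 0.0544). *Mgll* had coefficients of -0.30 to -0.054 with *Cnr1*, *Napepld*, *Faah* and *Abhd6*, with adjusted p from 0.212 to 0.831 by permutation.

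The 2 genes of the closest pair lie on different chromosomes. The 250 bases before the RefSeq start of each (GRCm38.p6) are shown, *Faah* at chr4:116017925-116018174 and *Napepld* at chr5:21701623-21701872, both on the minus strand. A link between these sequences and the correlation was not tested. With the oligodendrocyte score taken out of each gene, r of the pair was 0.19 (adjusted p = 0.662 by permutation). Capitals mark the GC box GGGCGG on either strand, the site motif of Sp1-type factors.
*Faah*: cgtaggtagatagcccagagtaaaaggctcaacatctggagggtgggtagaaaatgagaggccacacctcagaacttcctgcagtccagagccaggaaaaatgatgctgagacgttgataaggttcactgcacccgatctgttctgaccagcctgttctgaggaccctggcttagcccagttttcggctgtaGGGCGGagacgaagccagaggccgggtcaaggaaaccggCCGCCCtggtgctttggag
*Napepld*: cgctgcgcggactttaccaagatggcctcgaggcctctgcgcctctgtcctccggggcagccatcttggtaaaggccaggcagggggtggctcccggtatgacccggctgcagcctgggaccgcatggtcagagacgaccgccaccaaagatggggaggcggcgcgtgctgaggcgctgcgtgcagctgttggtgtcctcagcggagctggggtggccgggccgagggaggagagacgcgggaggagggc
The RefSeq start of *Napepld* lies outside the GENCODE gene, so this window is set by RefSeq alone. *Faah* held 2 GC boxes and *Napepld* 0, and 32.7% of 32851 RefSeq promoter windows of the same length held at least 1. Neither held CCAAT (33.8% of windows) or TATAAA (12.4%) on either strand. G and C made up 55.6% of the *Faah* window and 69.6% of that of *Napepld*.

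All 6 genes varied with the score of at least 1 cell type marker list. Each gene was correlated with the scores of 12 marker lists. No share over all genes tested is given here for such relations, so their number does not set the 6 genes apart. Of the 72 relations, 22 had an adjusted p under 0.05 by permutation within batches. *Faah* had 7 of them. It correlated with the score of 7 measured oligodendrocyte markers at r = -0.90 (permutation p = 1e-05, the smallest possible, adjusted p = 0.00024, rho = -0.87) and with that of 8 excitatory basolateral neuron markers at r = 0.90 (permutation p = 1e-05, adjusted p = 0.00024, rho = 0.86). Within the first and second batch, r was -0.94 and -0.83 with oligodendrocytes and 0.94 and 0.83 with excitatory neurons. It was -0.85 and 0.86 without the 2 mice farthest from the median of each score. Acute mouse 33, with the least *Faah*, had the highest oligodendrocyte score of the 28 mice (0.51) and the lowest excitatory score (-0.42). With coefficients this large and of opposite sign, the 2 scores ran against each other between mice. The relations of *Faah* with them are therefore not separate findings.

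*Napepld* (r = -0.74, permutation p = 1e-05, adjusted p = 0.00024, rho = -0.73), *Abhd6* (r = -0.63, permutation p = 0.00027, adjusted p = 0.0022, rho = -0.52) and *Cnr1* (r = -0.56, permutation p = 0.0024, adjusted p = 0.0115, rho = -0.61) were also lower in mice with more oligodendrocyte RNA. With the excitatory basolateral score, r was 0.71 for *Cnr1* (adjusted p = 0.00036, rho = 0.66), 0.64 for *Napepld* (adjusted p = 0.0022, rho = 0.66), 0.58 for *Abhd6* (adjusted p = 0.0076, rho = 0.58) and 0.52 for *Daglb* (adjusted p = 0.0293, rho = 0.58), all by permutation. The last of these rested on 2 mice, without which r was 0.39 (permutation p = 0.0647). The general neuron score varied with *Faah* (r = 0.78, adjusted p = 0.00043), *Daglb* (r = 0.58, adjusted p = 0.0115) and *Cnr1* (r = 0.56, adjusted p = 0.0116, but 0.0517 with the first principal component of the markers in place of their mean). The list named CCK interneurons held *Cck*, *Vip*, *Npas1*, *Adarb2*, *Calb2*, *Slc17a8*, *Htr3a* and *Lamp5*. Its score varied with *Faah* (r = 0.60, permutation p = 0.00056, adjusted p = 0.0040) but not past the threshold with *Cnr1* (r = 0.28, adjusted p = 0.275). Those 2 coefficients were not tested against each other.

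Markers of neighbouring tissue moved too. With the striatal score r was -0.69 for *Faah* (adjusted p = 0.0017), -0.64 for *Napepld* (adjusted p = 0.0022) and -0.53 for *Abhd6* (adjusted p = 0.0131), and 0.47 for *Mgll* (adjusted p = 0.0293), by permutation. With the central amygdala score it was -0.59 for *Napepld* (adjusted p = 0.0076) and -0.48 for *Faah* (adjusted p = 0.0459), and with the endothelial score -0.60 for *Faah* (adjusted p = 0.0137) and -0.50 for *Cnr1* (adjusted p = 0.0234). With the first principal component both endothelial relations fell short of the threshold, at r = -0.13 for *Faah* (adjusted p = 0.695) and -0.40 for *Cnr1* (adjusted p = 0.0889). With the GC and length trend removed, *Cnr1* with endothelial cells and *Faah* with the central amygdala did so too (adjusted p = 0.0535 for both). The relations of *Faah* with endothelial cells (r = -0.33, permutation p = 0.104) and the central amygdala (r = -0.36, p = 0.0906) and of *Abhd6* with striatum (r = -0.37, p = 0.0741) rested on 2 mice, and these are the values without them. By Spearman's rho 21 of the 22 relations also passed the adjustment, all but that of *Faah* with the central amygdala (rho = -0.39, adjusted p = 0.125). The central amygdala score was also 0.22 higher in Acute than in Water mice (exact p = 0.0284, the lowest of 36 comparisons of scores between groups). No relation with astrocytes, OPC, choroid plexus or thalamus passed. *Mgll* correlated with the score of 8 microglial markers at r = 0.60 (permutation p = 0.00093, adjusted p = 0.0061, rho = 0.58), with 0.51 and 0.64 within the batches and 0.57 without 2 mice. With the first principal component of these markers in place of their mean it did not pass (r = 0.35, adjusted p = 0.123). *Mgll* correlated with oligodendrocytes at r = 0.15 (adjusted p = 0.52 by permutation).

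**Figure D4:**
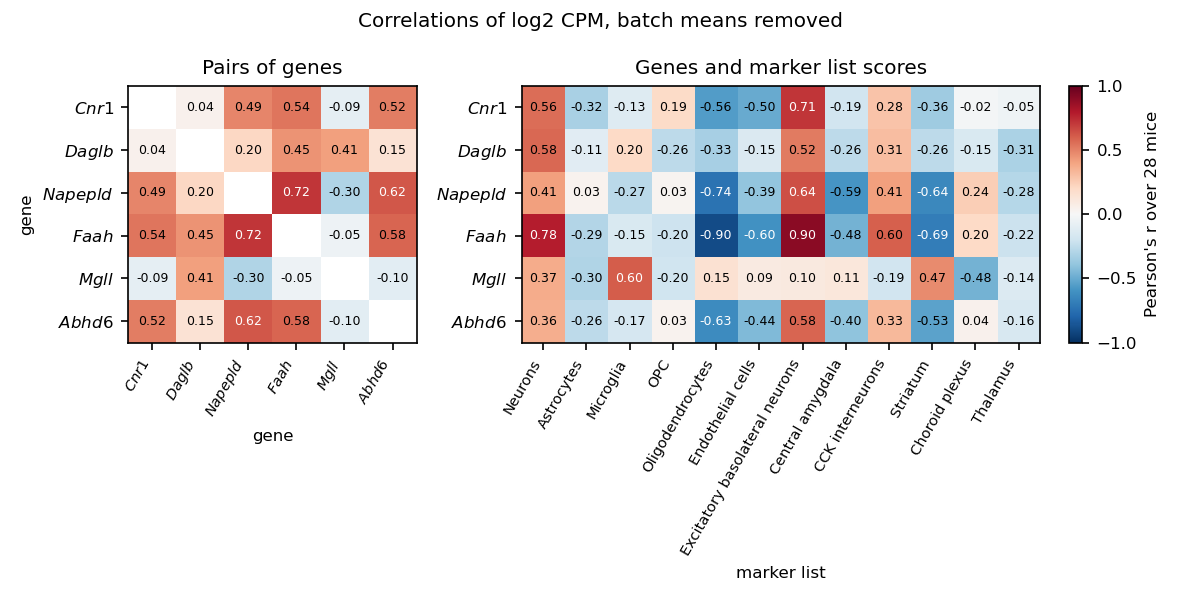
Pearson's r over 28 mice, with batch means removed, between pairs of the 6 genes (left) and between the genes and 12 marker list scores (right). *Cnr1*, *Napepld*, *Faah* and *Abhd6* are positive with each other and with excitatory basolateral neurons and negative with oligodendrocytes, and *Mgll* stands apart with microglia (0.60).

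**Figure D5:**
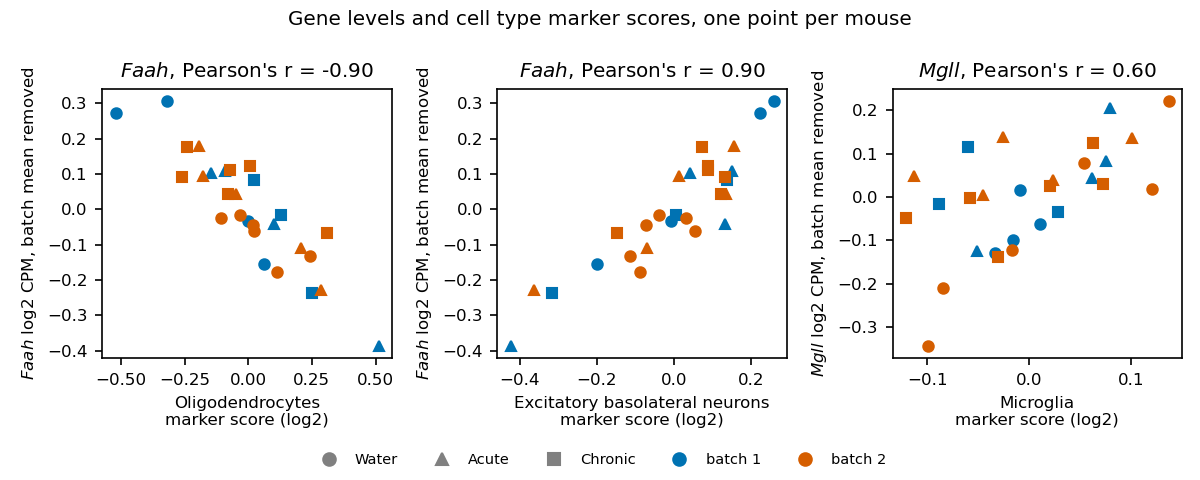
Log2 CPM of *Faah* against the oligodendrocyte and excitatory basolateral neuron scores, and of *Mgll* against the microglia score, with batch means removed, 1 point per mouse (shape: drinking group, colour: batch). *Faah* falls along the first score (r = -0.90) and rises along the second (r = 0.90), with the 3 drinking groups mixed along both.

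Fewer pairs of genes passed when a marker score was removed. With the oligodendrocyte score taken out of each gene, 0 of the 15 pairs passed the adjustment, and r of *Napepld* and *Faah* was 0.19 (adjusted p = 0.662 by permutation). With the excitatory score taken out, 1 pair passed, *Cnr1* and *Daglb*, at r = -0.55 (adjusted p = 0.0472) where r had been 0.040, and r of *Napepld* and *Faah* was 0.42 (adjusted p = 0.114).

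For each gene the 3 closest of 11722 other genes averaging 100 counts or more were listed by Pearson's r of log2 CPM over the 28 mice with batch means removed, as a description. For *Faah* they were *Nptxr* (0.94), which encodes a neuronal pentraxin receptor, *Cpne6* (0.94), a neuronal copine, and *Plppr2* (0.93). Those of *Cnr1* were *Pgm2l1* (0.82), *Cdk14* (0.81) and *Pter* (0.80), and those of *Napepld* were *Grk3* (0.82), *Ptpru* (0.82) and *Syt17* (0.81). *Daglb* had *Wsb2* (0.76), *Ggt7* (0.74) and *Zdhhc8* (0.73), *Abhd6* had *Sh3bp5* (0.82), *Spred2* (0.82) and *Otub2* (0.82), and *Mgll* had *Git1* (0.85), *Trnp1* (0.84) and *Kcnab2* (0.83). None of the 6 genes was among the 3 closest of another.

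Beyond the 6 genes, 40 other genes of the system were listed by role, and 33 could be tested. Of the rest, *Plcb3* was listed for the second batch alone, and *Cnr2*, the CB2 receptor gene (mean count 4.64), *Trpv1* (2.43), *Gpr18* (0.286), *Gpr119* (0.429), *Hrasls5* (0.929) and *Alox15* (0.821) stayed under a mean of 10 counts. No gene of the 33 was called in any of the 3 comparisons. At an unadjusted p under 0.05 the Acute group had 1 gene above and 1 below the Water group (background 9.52% in both directions together). The Chronic group had 1 above and 1 below Water (10.5%), and 0 above and 2 below Acute (4.44%). The median log2 fold changes of the 33 were -0.014, 0.0059 and 0.0092.

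Of the Gq-coupled receptors and G proteins that drive 2-AG release, 6 of 6 were tested. *Grm5*, the mGluR5 receptor gene, had 6068 ± 394 normalized counts in Water mice (SD, n = 10), 5695 ± 243 in Acute mice (n = 9) and 5658 ± 319 in Chronic mice (n = 9). It lay below the Water mean of the batch in 9 of 9 Acute mice and in 8 of 9 Chronic mice. The log2 fold change was -0.089 in Acute mice (SE 0.035, unadjusted p = 0.0175, adjusted p = 0.467) and -0.10 in Chronic mice (SE 0.035, unadjusted p = 0.0062, adjusted p = 0.272) by edgeR's test, with exact p = 0.017 and 0.0175, and it did not pass the adjustment in either.

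Among 7 Gi/o proteins and channels that CB1 acts on, *Gnai2* had 4603 ± 264 normalized counts in Chronic mice against 4299 ± 197 in the Water group, which is 0.093 on the log2 scale (unadjusted p = 0.0080, adjusted p = 0.29 by edgeR's test), with 8 of 9 Chronic mice above the Water mean. Of the 4 genes of breakdown and oxidation tested, *Abhd12* had 5788 ± 174 in the Acute and 5539 ± 342 in the Water group, which is 0.067 on the log2 scale (unadjusted p = 0.0434, adjusted p = 0.511 by edgeR's test), above the Water mean in 9 of 9 Acute mice. Of the 4 genes of 2-AG synthesis tested, *Plcb1* was lower in Chronic than in Acute mice at log2 -0.10 (unadjusted p = 0.042, adjusted p = 0.998), and of 7 genes of N-acylethanolamine synthesis *Hrasls* was lower at log2 -0.13 (unadjusted p = 0.0341, adjusted p = 0.998). None of these passed the adjustment. Of the 2 receptor or partner genes and 3 lipid carriers tested, 0 had an unadjusted p under 0.05 in any comparison.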

How the data were processed

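RNA-seq counts of 28 mice were used. The authors checked reads with FastQC 0.11.8, quantified them with Salmon 0.14.1 against GRCm38 and summarized them by GENCODE M21 gene with tximport, and deposited the estimated counts as whole numbers, in a table per batch, before batch adjustment. The tables were joined by gene identifier, keeping those that averaged 10 counts or more. The 6 genes, the marker lists and the other gene lists were chosen with earlier results of these data known.

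Comparisons used edgeR 4.0.16 on the 28 mice together (R 4.3.3; quasi-likelihood test, TMM, batch as a covariate), 2-sided, with Benjamini-Hochberg adjustment and a threshold of 0.05. Percent changes and 95% intervals come from its log2 fold changes. Exact permutation p-values regroup mice within batches in every way (32340 for comparisons with Water, 16170 for Chronic and Acute), 2-sided, with 3.09e-05 and 6.18e-05 as the smallest possible. Each p-value sets a group difference or a correlation against the variation between these mice. Correlations used log2 CPM (prior count 2) with batch means removed and 100000 permutations within batches. In the marker lists, *Slc17a6* is shared by the excitatory and thalamic lists and *Calb2* by the CCK and thalamic lists. Of the oligodendrocyte markers *Opalin* was listed for the second batch alone.

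Named genes were the 6, other listed genes left untested or with an unadjusted p under 0.05, and the 3 closest genes of each. *Dagla* and *Rac1* were named after their values were seen. Mice of a group and batch were checked for duplicated libraries in 55 pairs, and none was identical. edgeR was tested on simulated data. Alternatives used DESeq2 1.42.0, limma 3.58.1 and sva 3.50.0 (ComBat-seq). Offsets for GC content and length and the removal of marker scores were added after the data were seen. At 20004380 to 22569562 counts per mouse, precision for these genes is limited by differences among mice more than by counting.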

Additional observations from a re-analysis of the deposited data

Results flagged for a closer look

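*Faah* in Chronic mice moved in opposite directions in the 2 batches, in every mouse: the 3 Chronic mice of the first batch lay below the Water mean of that batch and the 6 of the second batch above theirs. The log2 difference from Water was 0.31 higher in the second batch than in the first. The interaction test of edgeR gave an unadjusted p of 0.0289 and an adjusted p of 0.789, so the difference between batches did not pass the correction. An unadjusted p under 0.05 was found for 6.15% of all genes, and batches opposite in every Chronic mouse for 2.02%. Chronic mouse 39 of the first batch differed from the Water mean by only -0.015 and Chronic mouse 3 of the second by 0.0098 (log2). With batch means removed, log2 CPM of *Faah* in the first batch was 0.31 and 0.27 in Water mice 42 and 43. It was -0.16 and -0.032 in Water mice 40 and 41, beside -0.016, -0.24 and 0.082 in Chronic mice 37, 38 and 39. The oligodendrocyte score of Chronic mice differed from Water by 0.33 in the first and -0.098 in the second batch. The part of this score in the *Faah* difference was not tested. Of 18 groups of 9 or 10 mice (6 genes in 3 drinking groups), none had a mouse that stood apart by Dixon's test.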

How the results depend on the processing

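No setting called any of the 6 genes in any comparison: 0 were called with DESeq2, ComBat-seq and DESeq2, limma-voom, RLE or upper quartile normalization, no filter, a minimum mean of 100 counts, each batch alone, only the groups compared, GC and length offsets, and each of the 28 mice left out. The lowest adjusted p over these settings was 0.334 for Acute and Water, 0.269 for Chronic and Water and 0.819 for Chronic and Acute.

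Signs of small fold changes turned in 20 of 234 values. For Acute against Water mice, *Cnr1* was 0.010 with limma-voom, 0.019 with GC and length offsets and 0.021 with the replicate block and these offsets, *Faah* 0.0071 with ComBat-seq, 0.041 with limma-voom and 0.077 in the second batch, *Napepld* 0.040 and *Abhd6* 0.043 in the second batch (log2). For Chronic against Water mice, *Cnr1* was 0.010 in the second batch, 0.010 with the offsets and 0.0089 with block and offsets, *Napepld* 0.043 with limma-voom and 0.096 in the second batch, *Faah* -0.16 in the first batch, and *Abhd6* -0.010 with ComBat-seq, -0.076 in the first batch, -0.00046 with the offsets and -0.0036 with block and offsets. For Chronic against Acute mice, *Cnr1* was 0.024 in the second and *Faah* -0.0074 in the first batch. Leaving out 1 mouse gave ranges of -0.034 to 0.0063 for *Cnr1* and -0.048 to 0.023 for *Faah* (Acute and Water), and -0.071 to 0.020 for *Napepld* and -0.026 to 0.027 for *Abhd6* (Chronic and Water). Small values also moved over 1.5 times without a turn: for Acute against Water mice *Napepld* ranged from -0.11 (without Water mouse 2) to -0.023 (without Water mouse 43), and for Chronic against Water mice *Cnr1* from -0.057 (without Chronic mouse 4) to -0.019 (without Chronic mouse 3) and *Faah* from 0.019 (without Water mouse 2) to 0.077 (without Chronic mouse 38). Under the other settings 37 of the 234 values did so. Against Water, the values that moved ranged in Acute mice from -0.022 to -0.0072 for *Cnr1*, -0.22 (first batch) to -0.00013 (limma-voom) for *Napepld*, -0.15 to -0.0069 for *Faah* and -0.15 to -0.024 for *Abhd6*, with *Daglb* at -0.018. In Chronic mice they ranged from -0.12 to -0.0071 for *Cnr1*, -0.22 to -0.0026 for *Napepld*, 0.069 (ComBat-seq) to 0.16 (second batch) for *Faah*, 0.037 to 0.041 for *Mgll* and 0.011 to 0.061 for *Abhd6*. Between Chronic and Acute mice they were -0.099 to -0.0086 for *Cnr1* and 0.017 to 0.077 for *Abhd6*, with *Daglb* at 0.053, *Napepld* at 0.0053, *Faah* at 0.034 and *Mgll* at -0.032. The cause of these moves was not tested.

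Mice that share a number in the second batch are not paired (5 of 16 pairs with r over 0.1, median -0.069). The replicate block called 0 of the 6 genes in each comparison and gave *Mgll* a log2 fold change of 0.12 (unadjusted p = 0.0153) between Acute and Water mice.

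Of the pairs of genes, 6 to 8 passed with another prior count, group means removed, RLE, Spearman's rho or the GC and length trend removed, and 5 to 8 with each mouse left out. With the oligodendrocyte score removed 0 passed and with the excitatory score removed 1; r of *Cnr1* and *Daglb* then was -0.19 and -0.55, of *Daglb* and *Napepld* -0.068 and -0.20, and of *Daglb* and *Abhd6* -0.087 and -0.22. With the oligodendrocyte score removed, r of *Faah* and *Mgll* was 0.19. With the excitatory score removed, r of *Cnr1* and *Faah* was -0.36 and of *Daglb* and *Faah* -0.041. With the GC and length trend removed, r of *Cnr1* and *Mgll* was 0.088. Leaving out 1 mouse, r ranged from -0.049 to 0.13 for *Cnr1* and *Daglb*, -0.18 to 0.032 for *Faah* and *Mgll* and -0.20 to 0.0047 for *Cnr1* and *Mgll*. Relations with marker lists passed in 21 to 26 cases; with the first principal component in place of the mean, 4 relations were lost, *Mgll* with microglia (adjusted p = 0.123), *Cnr1* with neurons (0.0517) and endothelial cells (0.0889) and *Faah* with endothelial cells (0.695), and with the GC and length trend removed *Cnr1* with endothelial cells and *Faah* with the central amygdala (both 0.0535).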
